A study of Mus musculus with 4 samples.

Results

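The regions described here are 1997 stretches of open chromatin away from gene ends that had a peak in every library but ranked higher in the libraries with TOX (WT) than in those without it (KO). Peaks of the 4 libraries that overlapped by at least 1 bp were merged into 97394 regions, of which 26867 had a peak in all 4 libraries. Of these, 17174 were under 2500 bp wide with a midpoint over 1 kb from each end of every protein-coding gene, and are called shared distal regions. In each library the deposited fold enrichment (peak over local background) of a region's strongest peak was ranked among the 17174 as a percentile, from the weakest near 0 to the strongest at 100. The 1997 WT-higher regions were chosen by these ranks. In each, the lower of the 2 WT percentiles lay at least 10 points above the higher of the 2 KO percentiles, and this difference is called the gap. They made up 11.6% of the shared distal regions. The same rule with the genotypes exchanged gave 2093 KO-higher regions, or 12.2%, so the counts in the opposite directions were close. Because the rule used the contrast of WT with KO, that contrast is described below without a test.

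The libraries came from ATAC-seq, in which a transposase cuts and tags accessible DNA, of SMARTA CD4 T cells, which carry a transgenic receptor for the GP61 peptide. Naive cells had been given to cytoxan-treated mice with B16-GP61 tumors, a melanoma line that presents this peptide, before being sorted on day 11 out of the lymph node that drains the tumor. The 2 WT libraries (WT-1, WT-2) held Ly5.1+ Ly5.2+ cells that were PD1hi, LAG3hi and CD39hi. The 2 KO libraries (KO-1, KO-2) held Ly5.1+ Ly5.2- cells sorted as low for the same 3 proteins. Genotype, gate and congenic marker thus differ at once and cannot be told apart, and the labels give neither the age of the animals nor the deleted part of Tox. Nothing in the labels says that the libraries of a genotype came from separate animals, and no read numbers are given, so depth is unknown. With 2 libraries against 2, an exact two-sided permutation p cannot go below 0.33.

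Distal open chromatin holds many enhancers, short stretches of DNA where transcription factors bind and raise the transcription of genes that may lie far away. In CD4 T cells such sites are bound by RUNX, ETS, TCF, AP-1, NFAT and STAT family proteins, and their accessibility shifts as a naive cell becomes an effector, helper or dysfunctional cell. TOX is a nuclear protein with an HMG box that is known from T cell development and from the chromatin state of exhausted T cells. The gene nearest to a distal region is used below as a name for its place, and it need not be the gene that the region acts on.

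Some WT-higher regions spanned a transcription start recorded by RefSeq, which belonged to a protein-coding gene in 70 regions and to a noncoding one in 45. The distance rule used protein-coding gene ends alone and was measured from the midpoint of a region, so it did not remove them. No genome sequence was used here, so sequences are given for such starts alone. The 7 printed here were picked because their genes act in T cell signaling, glycosylation or homing or because the gap was large. Each sequence runs 5′ to 3′ on the strand of the gene from 250 bases before to 50 bases after the start on GRCm38, and capitals mark matches to the 13 motifs searched.
Myadm, chr7:3290305-3290604, plus strand: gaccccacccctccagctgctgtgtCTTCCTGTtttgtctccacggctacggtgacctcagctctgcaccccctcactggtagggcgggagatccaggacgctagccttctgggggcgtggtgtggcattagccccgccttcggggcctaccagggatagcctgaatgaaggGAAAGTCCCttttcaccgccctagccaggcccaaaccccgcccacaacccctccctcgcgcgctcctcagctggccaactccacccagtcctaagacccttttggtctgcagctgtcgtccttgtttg
Sh2d3c, chr2:32727439-32727738, plus strand: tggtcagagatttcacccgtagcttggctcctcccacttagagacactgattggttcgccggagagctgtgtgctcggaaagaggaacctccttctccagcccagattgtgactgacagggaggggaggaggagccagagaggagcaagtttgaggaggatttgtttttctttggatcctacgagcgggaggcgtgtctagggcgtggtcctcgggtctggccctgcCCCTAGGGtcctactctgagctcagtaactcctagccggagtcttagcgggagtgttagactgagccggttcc
Gcnt1, chr19:17356618-17356917, minus strand: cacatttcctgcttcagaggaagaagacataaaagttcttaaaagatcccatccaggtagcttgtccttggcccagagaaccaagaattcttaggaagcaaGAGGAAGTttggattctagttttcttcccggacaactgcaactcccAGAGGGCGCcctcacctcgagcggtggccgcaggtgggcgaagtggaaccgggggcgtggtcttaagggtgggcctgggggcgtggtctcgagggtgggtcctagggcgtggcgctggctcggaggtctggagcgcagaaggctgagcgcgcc
Stat5b, chr11:100850532-100850831, minus strand: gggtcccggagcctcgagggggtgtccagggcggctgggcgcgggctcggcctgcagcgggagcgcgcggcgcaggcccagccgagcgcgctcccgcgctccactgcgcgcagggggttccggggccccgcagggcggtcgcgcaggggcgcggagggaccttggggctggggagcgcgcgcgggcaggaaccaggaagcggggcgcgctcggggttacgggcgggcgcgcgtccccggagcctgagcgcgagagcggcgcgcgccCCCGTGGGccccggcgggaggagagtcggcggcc
Ptpn7, chr1:135132450-135132749, plus strand: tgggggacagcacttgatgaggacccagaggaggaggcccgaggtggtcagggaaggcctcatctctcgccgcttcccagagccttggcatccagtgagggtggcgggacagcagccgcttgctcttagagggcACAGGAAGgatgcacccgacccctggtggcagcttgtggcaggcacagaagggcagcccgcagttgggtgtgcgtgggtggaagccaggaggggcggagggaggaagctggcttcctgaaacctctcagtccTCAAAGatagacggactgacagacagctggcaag
Runx3, chr4:135152295-135152594, plus strand: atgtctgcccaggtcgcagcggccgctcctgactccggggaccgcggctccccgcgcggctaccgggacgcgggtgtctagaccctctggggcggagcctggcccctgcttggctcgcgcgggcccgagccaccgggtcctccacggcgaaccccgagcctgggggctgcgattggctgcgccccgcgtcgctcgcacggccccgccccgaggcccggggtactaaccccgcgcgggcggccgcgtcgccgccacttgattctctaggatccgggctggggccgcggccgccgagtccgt
Itgb7, chr15:102231886-102232185, minus strand: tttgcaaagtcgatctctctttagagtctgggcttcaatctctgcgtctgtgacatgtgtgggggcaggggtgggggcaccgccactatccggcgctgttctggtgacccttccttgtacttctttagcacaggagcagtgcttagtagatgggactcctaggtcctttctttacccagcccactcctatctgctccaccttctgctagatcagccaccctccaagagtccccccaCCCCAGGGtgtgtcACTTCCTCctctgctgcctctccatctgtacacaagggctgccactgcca

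Fold enrichment is given below for KO-1 and KO-2, then for WT-1 and WT-2, also where 4 values stand without a label. The Myadm region (chr7:3289888-3290746) had a fold enrichment of 3.11 and 3.73 in KO against 10.8 and 9.98 in WT. Both WT libraries were above both KO libraries, and the gap was 70.1 percentile points. Myadm encodes a membrane protein of hematopoietic cells, and its window held an ETS match and an NF-kappaB match, both on the opposite strand. At Sh2d3c (chr2:32727369-32727798), which encodes an adaptor that binds Cas docking proteins, the fold enrichment was 3.09 and 4.28 in KO and 7.49 and 8.56 in WT. The Gcnt1 region (chr19:17356246-17356961) gave 3.44, 3.58, 7.76 and 8.09 in the same order. Gcnt1 encodes the core 2 enzyme that builds selectin ligands on T cell glycoproteins, and its window held a PU.1 and a CTCF match. In both regions the WT and KO values did not overlap, with gaps of 57.6 and 47.3.

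At Stat5b, whose protein carries signals of IL-2 and related cytokines, the region over the start (chr11:100850006-100851150) had a fold enrichment of 3.88 and 6.74 in KO against 9.0 and 8.45 in WT. The window of this start was rich in G and C, with 82.7% of its bases. Ptpn7 encodes a leukocyte phosphatase of MAP kinases, and its region (chr1:135132347-135133338) had 4.06, 6.24, 9.21 and 7.80 in the same order. Runx3, a transcription factor of cytotoxic and Th1 cells that is known to use a distal and a proximal promoter, had a region over an internal start (chr4:135152141-135153442) with 3.25, 4.10, 5.24 and 5.47. At Itgb7, the beta 7 integrin chain of gut homing, the region (chr15:102231826-102232413) had 2.94, 4.02, 3.96 and 4.37. Here the fold of KO-2 exceeded that of WT-1, and the region was WT-higher by rank alone, with a gap of 11.6. The other 3 did not overlap in fold and had gaps of 33.4, 29.5 and 26.0.

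A RefSeq start lay inside 113 of the WT-higher regions (5.66%), against 40 of the KO-higher regions (1.91%) and 1601 of all shared distal regions (9.32%). Shared distal regions with a start were thus WT-higher in 7.06% and KO-higher in 2.50%, and those without one in 12.1% and 13.2%. The 13 motifs were searched as letters on both strands of the window whose start was nearest to the midpoint of its region. A match describes the letters and is not a bound site. The PU.1 letters GAGGAAGT stood in 13 of the 113 windows (11.5%), against 4.25% of the windows of all shared distal regions with a start and 3.20% of all 32817 RefSeq windows. The ETS letters ACAGGAAG stood in 12 (10.6%), against 6.0% and 3.57%, and these strings cannot match at the same GGAA. The CTCF letters AGNGGGCGC stood in 9 (7.96%), against 6.0% and 2.87%. In the 40 windows of KO-higher regions there was 1 PU.1 match and 1 CTCF match, and 4 ETS matches.

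RUNX (TGTGGT) stood in 13.3% of the 113 windows against 14.6% of the windows of all shared distal regions with a start and 27.5% of those of KO-higher regions. NFAT (TGGAAA) gave 12.4%, 17.4% and 25% in the same order, AP-1 (TGANTCA) 7.08%, 7.0% and 15%, and IRF (TTTCNNTTT) 6.19%, 7.81% and 17.5%. TCF (TCAAAG) gave 15.9%, 13.4% and 17.5%, and EBF (CCCNNGGG) 19.5%, 18.7% and 17.5%. The remaining motifs, which were T-box (TCACACCT), OCT (ATTTGCAT), NF-kappaB (GGGANTTTC) and NR4A (AAAGGTCA), each matched at most 3 of the 113 windows. The windows of KO-higher regions were few and had a lower median GC content, 51.8% against 58% for WT-higher regions and 59.7% for all shared distal regions with a start.

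Another 24 WT-higher regions (1.20%) had their midpoint within 5 kb of a microRNA hairpin of RefSeq, against 8 KO-higher regions (0.382%) and 156 of all shared distal regions (0.908%). The mature microRNAs of 2 such regions are printed because they are known to be induced by T cell activation. Capitals mark the seed, bases 2 to 8, which pairs with target RNAs, and miR-132 and miR-212 share it.
mmu-miR-21a-5p: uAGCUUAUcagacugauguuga
mmu-miR-132-3p: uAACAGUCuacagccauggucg
mmu-miR-212-3p: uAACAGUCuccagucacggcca
The region near Mir21a (chr11:86581256-86581742), inside Vmp1, had a fold enrichment of 2.72 and 3.36 in KO against 4.81 and 5.52 in WT, with a gap of 34.4. The Mir132 and Mir212 hairpins lay inside 1 region (chr11:75172899-75173993) with 3.76, 5.4, 5.22 and 5.65. The first pair of genotypes did not overlap in fold, while at Mir132 and Mir212 KO-2 exceeded WT-1 and the gap was 10.9. Other WT-higher regions lay near Mir26b (gap 18.7), the X-linked cluster that starts with Mir106a (gap 12.8), Mir342 (gap 11.5) and the pair Mir191 and Mir425 (gap 10.8).

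Over all 1997 regions the median fold enrichment was 3.35 and 5.30 in KO against 6.59 and 6.78 in WT. For all shared distal regions it was 4.27, 7.16, 5.48 and 5.63. KO-2 thus had the highest folds of the 4 libraries and KO-1 the lowest, which is why ranks within a library were compared. The median percentile of the WT-higher regions was 24.6 and 27.3 in KO against 64.1 and 64.3 in WT. In 1540 of them (77.1%) the fold itself was also higher in both WT libraries than in both KO libraries, which held for 15.5% of all shared distal regions. In the other WT-higher regions a KO fold, set on its own library's scale, reached or passed a WT fold.

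The median gap was 19.2 points and the largest 80.0. A gap of at least 20 was reached by 940 regions, of at least 30 by 451, of at least 50 by 91 and of at least 70 by 13. For KO-higher regions these counts were 1013, 493, 64 and 3, so gaps of 50 and more were fewer in that direction while those of 20 and 30 were not. Libraries of a genotype differed by a median of 5.98 points for the WT pair and 8.49 for the KO pair in the WT-higher regions, and by 7.83 and 10.7 in all shared distal regions. Many gaps just past the threshold were therefore of the size of the difference between replicates. Leaving out a library loosens the rule, since fewer peaks and ranks are required, and the WT-higher and KO-higher counts were then 4479 and 4550 without KO-1, 3736 and 3855 without KO-2, 3362 and 3438 without WT-1, and 3334 and 3364 without WT-2. The counts in the opposite directions stayed close in each case.

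Regions of middling rank met the rule most often. Among 4 equal classes by mean percentile the share that was WT-higher was 8.99% in the weakest, 16.3% and 16.4% in the middle classes and 4.84% in the strongest. For KO-higher regions the shares were 9.97%, 17.2%, 15.5% and 6.08% in the same order. The classes use the same percentiles as the rule, and a mean near either end leaves little room for a gap. This shape is thus not a trait of the WT-higher regions.

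**Figure D1:**
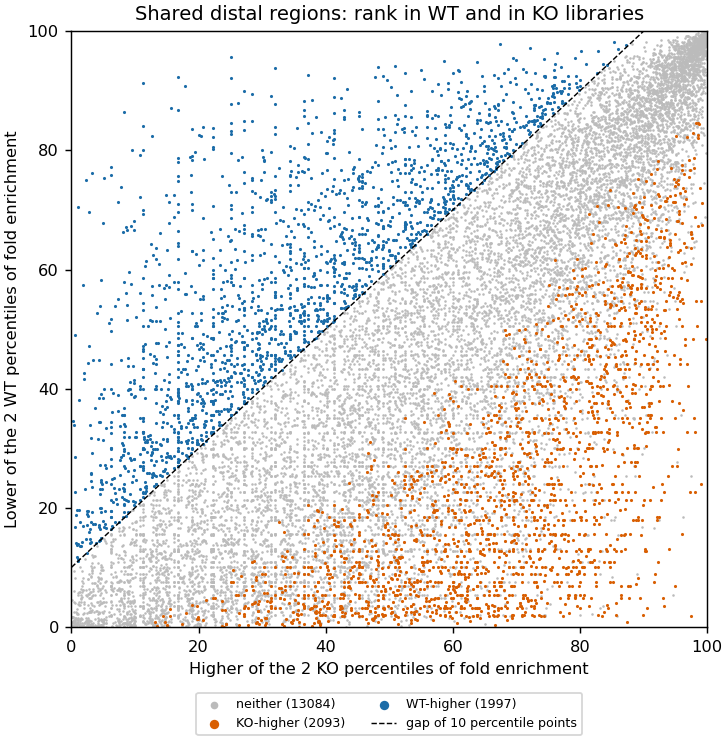
Each point is a shared distal region, placed by the higher of its KO percentiles (horizontal) and the lower of its WT percentiles (vertical) of fold enrichment, both from 0 to 100, and the dashed line is the gap of 10 points. The 1997 WT-higher regions lie above the line by construction, the 2093 KO-higher regions sit in the lower right, and few points of either kind are near the corner where all libraries rank high.

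The libraries also differed in peaks at markers of other cell types, and these values may bear on results below. Regions at 12 B cell genes, 128 in all, had a peak in 11 and 19 cases in the KO libraries and in 97 and 106 in the WT libraries, and the genes with any peak numbered 5, 9, 12 and 12. For 98 regions at myeloid and dendritic cell genes the numbers were 34, 49, 70 and 77. Both lists were higher in both WT libraries, and their part in the WT-higher regions was not tested. Regions at pan T cell genes, 208 in all, had a peak in 119, 162, 124 and 126 cases, and all 16 of these genes had one in every library. Natural killer cell genes gave 11, 22, 24 and 23 of 35 regions, melanocyte genes 8, 17, 8 and 9 of 23, and CD8 T cell genes 1, 5, 2 and 1 of 6. In such bulk data, more cells of a type and more signal per cell cannot be told apart.

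The region with the largest gap lay between genes at chr6:37617205-37617938, with Akr1d1, a steroid reductase gene, nearest at 42650 bp. Its fold enrichment was 2.95 and 3.26 in KO against 12.1 and 11.3 in WT. The next, at chr10:12903515-12904487 and 34113 bp from Utrn, the gene of the dystrophin homolog utrophin, had 2.78, 3.73, 10.3 and 9.89. In both, a region near the bottom of the KO rankings stood among the strong regions of the WT libraries, at percentiles from 86.4 to 94.0. The KO peaks were weak calls. Their −log10 q, the deposited significance, was 2.76 and 2.79 near Akr1d1 and 2.25 and 4.08 near Utrn, where every listed peak had at least 2.0. The third lay 10115 bp from Il4ra (chr7:125541659-125542654), which encodes the IL-4 receptor chain used by T and B cells, with 3.11, 3.26, 11.4 and 15.2. It ranked at 16.7 and 3.75 in KO-1 and KO-2 and at 92.3 and 98.2 in WT-1 and WT-2.

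Of the other 7 regions with the largest gaps, 3 lay inside genes. These were in Lrrc25 (chr8:70618545-70619358), a leukocyte membrane protein, in Cerk (chr15:86182054-86183275), the ceramide kinase, and in Yeats4 (chr10:117215783-117216656), a reader of acetylated histones. At Lrrc25 the fold enrichment was 3.05 and 4.58 in KO and 11.0 and 14.2 in WT, and at Cerk 2.67, 2.90, 7.98 and 8.84. At the regions nearest to 1110059E24Rik, Nid1, Gucy2c and Ezr, both WT values again exceeded both KO values. The last of these lay 33751 bp from Ezr, the gene of the membrane-to-actin linker ezrin (chr17:6816086-6816976), with 2.95, 5.12, 13.0 and 14.7. Over all 10 regions no KO percentile was above 25.2 and no WT percentile below 75. The −log10 q of their strongest KO-1 peaks was at most 3.37, so that they counted as shared rests on weak calls in this library.

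**Figure D2:**
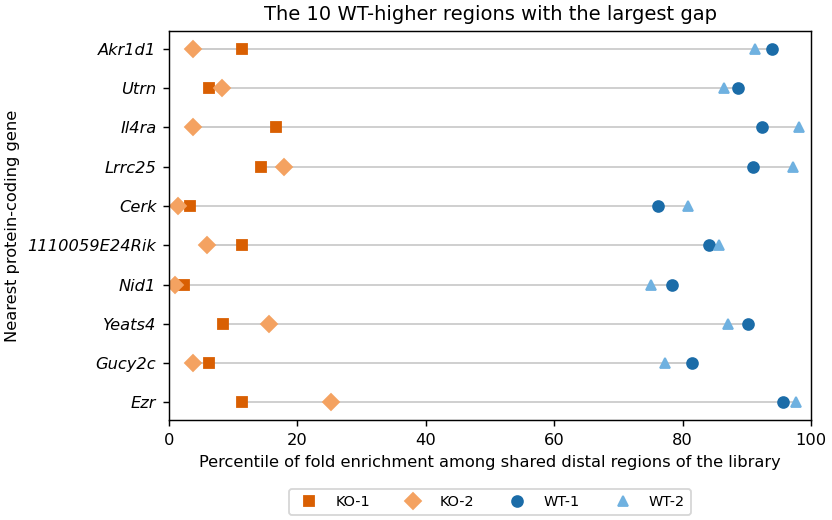
Percentile of fold enrichment (horizontal, 0 to 100) in each library for the 10 WT-higher regions with the largest gap, named by nearest gene (vertical), with KO libraries in orange and WT libraries in blue. The KO points lie at or below 25.2 and the WT points at or above 75, which the choice by largest gap ensures.

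The 5 WT-higher regions with the highest lower WT percentile were also strong in KO, with no KO percentile below 65.9. By the lower WT percentile the first was 111223 bp from Uaca (chr9:60991260-60992048), with a fold enrichment of 5.87 and 12.1 in KO against 15.6 and 15.2 in WT. The next lay inside Sipa1l1 (chr12:82225623-82226380), which encodes an activating protein of Rap GTPases, with 5.29, 8.86, 14.6 and 16.6. Regions near Alox5ap (gap 10.5) and in Fnbp1 (gap 25.1) and H6pd (gap 11.0) followed. Among these 5 the gap ran from 10.5 to 30.6, far below that of the regions with the largest gaps. At the threshold, the last regions inside were at Nr1h3 and Bfsp1 (both 10.01) and Yipf7 (10.00), and the first outside at Ubxn11 and Magi3 (both 9.99) and Arid5b (9.98).

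WT-higher regions lay inside genes about as often as the rest, with 1114 of 1997 (55.8%) against 54.8% of KO-higher and 57.1% of all shared distal regions. They were nearer to gene ends than the KO-higher regions and close to the background. The median distance from the midpoint to the nearest end of a protein-coding gene was 13688 bp, against 21493 bp for KO-higher and 15273 bp for all shared distal regions. Within 1 to 5 kb of an end lay 23.0% of WT-higher, 14.8% of KO-higher and 22.4% of all shared distal regions. Beyond 100 kb of an end lay 7.41%, 11.6% and 8.02%, and 83 WT-higher regions (4.16%) had no protein-coding gene within 100 kb. By this measure the KO-higher regions stood further from the background than the WT-higher regions did.

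**Figure D3:**
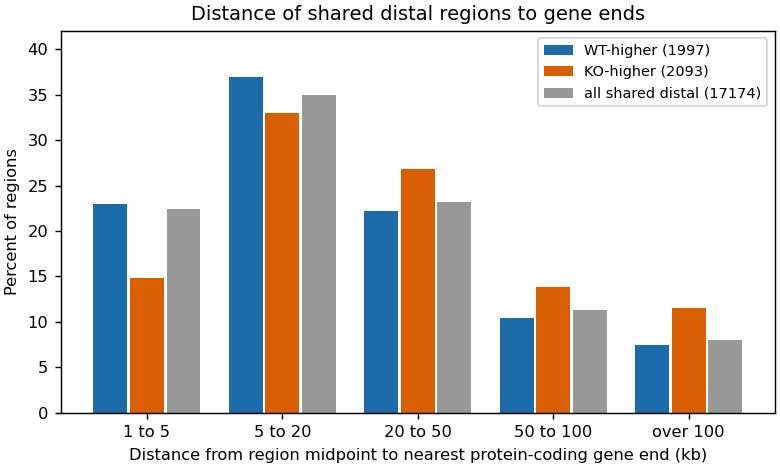
Bars give the percent of regions (vertical) in 5 classes of distance from the midpoint to the nearest protein-coding gene end in kb (horizontal), for the WT-higher, KO-higher and all shared distal regions. WT-higher regions follow the background (23.0% against 22.4% at 1 to 5 kb), while KO-higher regions are fewer near gene ends (14.8%) and more frequent beyond 100 kb (11.6%).

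In width and shape the WT-higher regions resembled the others, with a median of 674 bp (203 to 2265 bp) against 663 bp and 689 bp for KO-higher and all shared distal regions. The summits of the strongest peaks of the 4 libraries lay within 100 bp of each other in 71.5% of WT-higher, 71.2% of KO-higher and 75.1% of all shared distal regions. Most WT-higher regions thus rested on peaks at the same place in all libraries. In the others the values of the libraries could come from different places in a merged region. Among regions named in this text, summits were 741 bp apart at Bbc3 and 718 bp apart near 1110059E24Rik. Per chromosome, the share that was WT-higher ran from 7.61% on chromosome 14 (51 of 670) to 14.5% on chromosome 19 (71 of 491). A region found in the WT pair alone lay within 10 kb of 426 WT-higher regions (21.3%), 18.8% of KO-higher and 19.2% of all shared distal regions. Regions with the reverse pattern lay within 10 kb of 6.46%, 7.69% and 6.56%.

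Within 100 kb of a protein-coding gene lay 1914 WT-higher regions, at 1620 of the 7134 genes that had any shared distal region. Of these genes 1382 had 1 WT-higher region, 196 had 2 and 42 had at least 3, and 404 of the 1620 also had a KO-higher region. Among all 7134 genes 1509 had one, so a KO-higher region stood at about as large a share of the genes with a WT-higher region as of all genes. Map3k5, which encodes the stress-activated kinase ASK1, led with 6 WT-higher regions of 10 and none KO-higher, and all 6 lay inside the gene. The largest difference there was at chr10:20000337-20000739, with a fold enrichment of 2.95 and 4.21 in KO against 6.79 and 7.02 in WT. Gaps of the other 5 ran from 12.7 to 31.9, and in 5 of the 6 the folds of WT and KO did not overlap.

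Sema4d, which encodes the semaphorin CD100 of T cells, had 6 WT-higher regions of 16 and 1 KO-higher region. The 6 formed the run with the most WT-higher regions, 56313 bp from the first to the last (chr13:51742496-51798808), with 9 shared distal regions in it, and 5 lay inside the gene. At chr13:51753888-51754521 the fold enrichment was 3.28 and 3.41 in KO against 6.30 and 6.55 in WT, with a gap of 37.3. The other gaps ran from 10.4 to 23.7. Runs were the exception. Joining WT-higher regions at most 50 kb apart left 1421 alone, 225 pairs, 25 runs of 3, 10 of 4 and 1 each of 5 and 6.

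**Figure D4:**
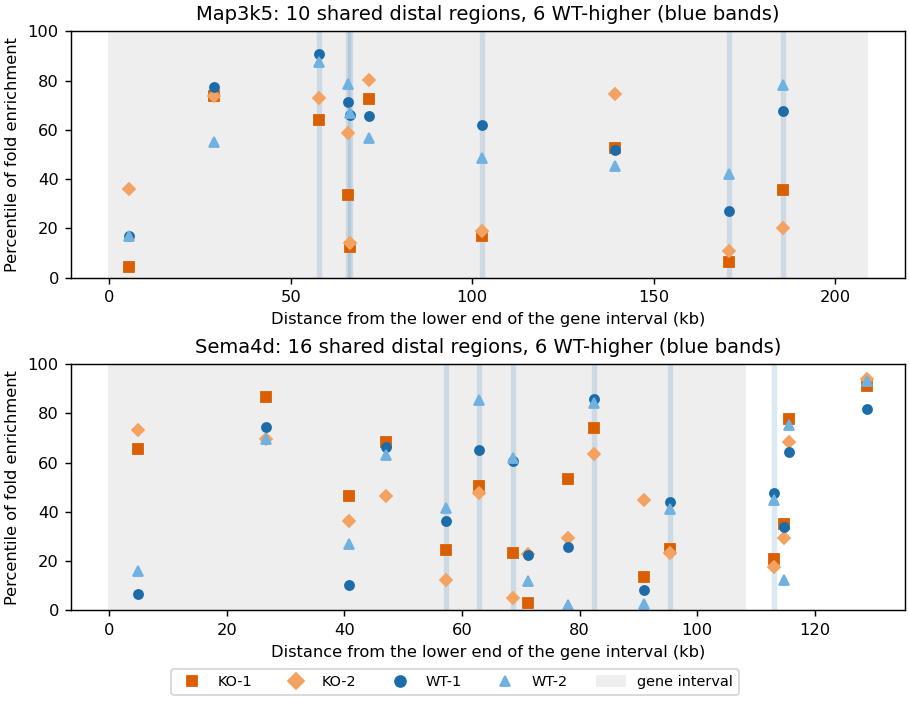
Percentile of fold enrichment (vertical, 0 to 100) of every shared distal region assigned to Map3k5 (top) and Sema4d (bottom) in each library, against the distance from the lower end of the gene interval in kb (horizontal), with the gene interval shaded and WT-higher regions on blue bands. At both genes 6 regions are WT-higher, and at Sema4d other regions of the same gene, such as those at its lower end, rank higher in KO.

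Further genes had 4 or 5 WT-higher regions. Ripor2, an inhibitor of RhoA in T cells, had 5 of 15, all inside the gene, with gaps from 14.7 to 30.7. Ppp1r16b, a regulatory subunit of protein phosphatase 1, had 4 of 9, with gaps from 14.1 to 31.1. Sgms1, a sphingomyelin synthase, had 4 of 16, Lpp, a LIM protein of focal adhesions, 4 of 15, and Arhgef3, an exchange factor of RhoA, 4 of 22. Each of these had 1 KO-higher region, except Arhgef3 with 3. Of these, 1 WT-higher region of Sgms1 and 1 of Arhgef3 turned to a negative gap where the mean of several peaks was ranked in place of the strongest. At Ripor2 the region at chr13:24654565-24655381 had a fold enrichment of 3.11 and 3.49 in KO against 6.73 and 5.44 in WT, without overlap.

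At 3 genes with 3 shared distal regions each, all 3 were WT-higher. These were Cbfa2t3, which encodes a corepressor of hematopoietic cells, Nkx2-3, a homeobox factor of lymphoid organs, and Shank1, a scaffold protein known from synapses. Over all 7134 genes with a shared distal region 11.7% of the regions were WT-higher. With so many genes, a few of this kind can arise at that share, and the same count was not made for KO-higher regions. The region near Cbfa2t3 at chr8:122701244-122702868 had a fold enrichment of 2.88 and 4.49 in KO against 6.34 and 5.83 in WT. For Nkx2-3 the region at chr19:43630560-43631355 had 3.6, 5.36, 7.95 and 8.06. Both pairs of genotypes were apart in fold, with gaps of 35.7 and 43.7. The run next in size to that of Sema4d held 5 WT-higher regions of 8 near Cxxc5 and Psd2 (chr18:35873057-35938158), with gaps from 10.8 to 27.4. Of these, the region at chr18:35873057 turned to a gap of −10.9 without WT-2 and of −2.52 with ranks among all peaks of a library. A further run held 4 WT-higher regions near Neurl3 and Arid5a (chr1:36261867-36297106), the largest at chr1:36281807-36282561 with 2.95, 4.66, 8.51 and 9.38 and a gap of 60.2.

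Rapgef1 and Rapgef2, exchange factors that load Rap GTPases and so act on integrin adhesion, each had 4 WT-higher regions, of 14 and 12. At Rapgef2 1 region was KO-higher, and 1 of its WT-higher regions turned to a gap of −11.1 with the mean of several peaks. Because both were among the leading genes, a list of 31 genes of Rap GTPases, their regulators and effectors was written after these values had been seen. The list holds Rapgef1 and Rapgef2, the genes that prompted it, and also Rasgrp1, an exchange factor of Ras. Its counts are a description, and no share without these genes was computed. The list had 116 shared distal regions, of which 30 (25.9%) were WT-higher and 12 (10.3%) KO-higher, against 11.7% and 11.8% over all genes with a shared distal region. The median gap was −6.11 for the list and −9.58 over all genes. The WT-higher count of the list was 45 without KO-1, 37 without KO-2, 37 without WT-1 and 34 without WT-2. It rose less than the count of all WT-higher regions, which went from 1997 to 4479, 3736, 3362 and 3334 in the same order. The 30 regions stood at 14 genes. Among them Sipa1 had 2 of 2, its relative Sipa1l1, as named above, 3 of 7, Ralgds, an effector that activates Ral, 3 of 7, and Rap1b, a Rap GTPase itself, 3 of 9.

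The largest gap of the Rap list was near Rasgrp1 (chr2:117352207-117353108). As its exchange factor links the T cell receptor to Ras, this region does not speak for Rap genes. The fold enrichment of the region was 3.11 and 5.36 in KO against 10.5 and 9.60 in WT, while 3 of the 12 shared distal regions of Rasgrp1 were KO-higher. In Ralgds the region at chr2:28539706-28540508 had 3.27, 5.82, 8.28 and 8.71. In Rapgef1 the region at chr2:29631990-29632705 had 2.67, 5.00, 6.87 and 7.38. The genotypes did not overlap in any of the 3. Apbb1ip encodes RIAM, which joins Rap1 to talin, and its region at chr2:22807004-22807920 had 3.22, 5.57, 7.90 and 7.52 with a gap of 41.0. At Rap1b, 2 of the 3 regions overlapped in fold and were WT-higher by rank alone. KO-higher regions numbered 2 at Rap1b and 1 each at Sipa1l1 and Apbb1ip.

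Gene lists of T cell biology and of other cell types, 24 in all, held 84 WT-higher regions, and between 143 (without WT-2) and 185 (without KO-1) where a library was left out. Over all genes with a shared distal region 11.7% of the regions were WT-higher and 11.8% KO-higher, and most T cell lists lay at or below this share. Cytokines and receptors of the common gamma chain, with their kinases and STAT factors, had 10 WT-higher and 8 KO-higher regions of 60, and chemokine receptors and homing molecules 8 and 6 of 55. Activation genes had 12 and 13 of 100, and RUNX, ETS and Ikaros factors 11 and 11 of 97. NFAT, NF-kappaB and AP-1 factors had 7 and 4 of 70, and genes of survival and death 5 and 6 of 42. Lower shares stood at inhibitory receptors and exhaustion genes with 8 and 22 of 125, regulatory T cell genes with 3 and 9 of 55, and pan T cell genes with 1 and 11 of 64. The median gap of these 3 lists was −15.6, −14.5 and −15.1, against −9.58 over all genes. The WT-higher count at inhibitory receptors and exhaustion genes became 19 without KO-1, 18 without KO-2 and 16 without either WT library, and that at pan T cell genes 6 without KO-1, 2 without KO-2, 4 without WT-1 and 6 without WT-2.

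**Figure D5:**
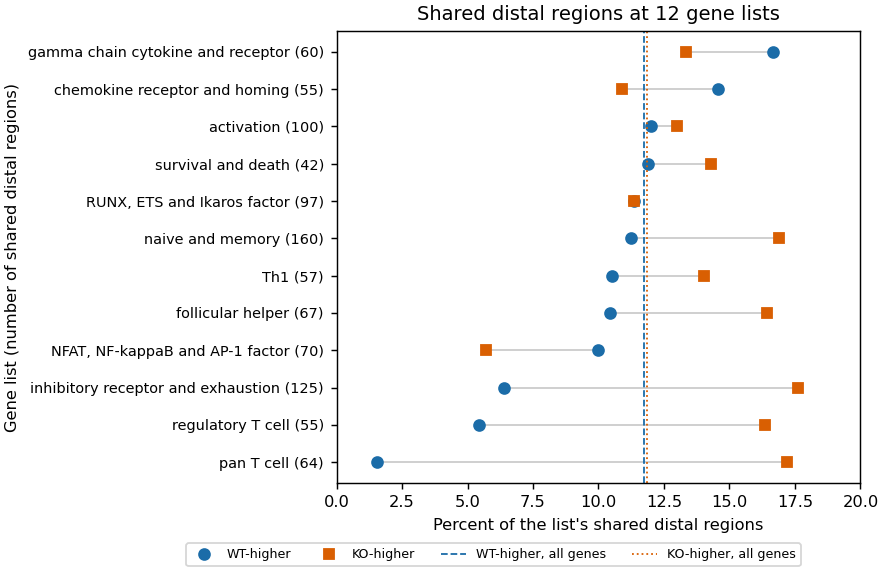
Percent of shared distal regions that were WT-higher (blue circles) or KO-higher (orange squares) for 12 of the 24 gene lists, those with at least 40 such regions, number of regions in brackets, with lines at the shares over all genes (11.7% and 11.8%). Blue circles run from 1.56% at pan T cell genes to 16.7% at gamma chain cytokine genes, and the circles lie on either side of the line.

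Among cytokine receptor genes, Stat5b had 2 WT-higher regions of 6 and Jak1, the kinase shared by these receptors, 2 of 11, with 2 others KO-higher. At Jak1 the region at chr4:101320591-101320931 had a fold enrichment of 2.95 and 3.15 in KO against 7.19 and 5.94 in WT, with a gap of 43.0. Near Il21, the cytokine of follicular helper cells, the region at chr3:37203889-37204486 had 3.26, 5.30, 6.37 and 7.03. Neither overlapped between genotypes. At Il21r KO-2 (8.41) was above both WT libraries (7.76 and 7.81), and the gap of 11.5 came from rank alone. Il21r also had 2 KO-higher regions of 6 and Il21 had 1 of 5. Single regions near Il9r (gap 13.1) and Socs3 (gap 10.2) were closer to the threshold.

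Transcription factors of helper and effector cells were represented by few regions. The single shared distal region of Tbx21, which encodes the Th1 factor T-bet, was WT-higher (chr11:97101627-97102326), with a fold enrichment of 3.76 and 4.89 in KO against 6.13 and 6.17 in WT. Stat4, which acts downstream of IL-12, had 1 of 9, with 3.0, 3.21, 5.33 and 5.57. Runx3 had 3 WT-higher and 2 KO-higher regions of 8. The folds of the genotypes were apart at Tbx21 and Stat4 and at 2 of the 3 Runx3 regions. The Th1 list as a whole had 6 WT-higher (10.5%) and 8 KO-higher (14.0%) regions of 57, against 11.7% and 11.8% over all genes with a shared distal region.

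Irf4, a factor of activated T cells, plasma cells and exhausted T cells, held 1 of the regions with the lowest KO ranks (chr13:30760857-30761878). Its fold enrichment was 2.37 and 2.79 in KO against 7.35 and 7.37 in WT, with a gap of 69.3, and another of its 3 regions was KO-higher. In the WT-higher Irf4 region the summits of the strongest peaks were up to 617 bp apart, with that of KO-2 near the lower edge. The KO-2 value there thus came from another place than the WT values. Near Irf8, a factor of B cells and myeloid cells, the region at chr8:120724796-120726124 had 3.11, 6.97, 12.7 and 11.7. Near Il10, the anti-inflammatory cytokine, the region at chr1:131003089-131003755 had 3.25, 2.47, 7.15 and 7.18. At Il10 2 of its 8 regions were KO-higher, and at Irf8 1 of 4. The 3 WT-higher regions were apart in fold, and which cells their signal came from was not tested.

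Genes of naive and memory T cells had 18 WT-higher and 27 KO-higher regions of 160, on both sides often at the same gene. These were 11.25% and 16.9%, against 11.7% and 11.8% over all genes with a shared distal region. Foxp1, which keeps T cells quiescent, had 3 and 6 of 26, and Bach2 1 and 6 of 25. At Foxp1 and Ets1, 1 WT-higher region each (chr6:99027212-99028936 and chr9:32709874-32710800) turned to a negative gap with the mean of several peaks. Ets1 had 3 and 2 of 20, and Satb1, a chromatin organizer of T cells, 2 and 2 of 7. The region of Satb1 at chr17:51903693-51904430 had a fold enrichment of 4.42 and 7.08 in KO against 13.4 and 11.9 in WT. Near Lef1, a partner of TCF1 in naive and follicular helper cells, the region at chr3:131056972-131057729 had 5.07, 7.45, 12.6 and 14.3. Near Foxo1 the region at chr3:52396028-52396809 had 3.36, 5.28, 8.02 and 9.49 and a gap of 49.2. In these 3 the WT values were above all KO values, while 1 other region of Lef1 and 2 of Foxo1 were KO-higher.

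Homing genes with WT-higher regions included Itgb7 (2 of 3), Ccr9 (1 of 1), S1pr1 (2 of 16) and, with 1 each, Ccr7 and Cxcr5. Near Ccr9, a gut homing receptor, the region at chr9:123754148-123754868 had a fold enrichment of 4.25 and 9.35 in KO against 14.0 and 11.6 in WT, and the second Itgb7 region (chr15:102224299-102225641) had 4.65, 6.66, 8.94 and 9.03. Both were apart in fold. In this Itgb7 region the summits were up to 705 bp apart, because that of KO-1 lay away from those of the other libraries. Ccr7 had 2 KO-higher regions of 8, and its WT-higher region turned to a gap of −7.41 with the mean of several peaks. Near S1pr1, the receptor that lets lymphocytes leave the node, gaps were 14.9 and 14.3, and 2 other regions were KO-higher.

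Of the inhibitory receptor and exhaustion genes, Cd200 and Nfatc1 had 2 WT-higher regions each, of 3 and 15, and Cd244a, Ikzf2, Irf4 and Nr4a3 had 1 each. The region in Cd200 (chr16:45389064-45390323) had a fold enrichment of 5.53 and 9.99 in KO against 12.8 and 14.6 in WT, and its remaining region was KO-higher. In Nfatc1, the NFAT factor that drives inhibitory receptor genes, the region at chr18:80691474-80692278 had 3.22, 4.23, 6.64 and 5.99. Among death genes Bcl2l11, which encodes the killer protein Bim, had 1 of 2 (chr2:128152546-128153900), with 2.60, 5.21, 6.04 and 6.16, and Bbc3, the gene of Puma, 1 of 3. In each of the regions with values here WT was above KO, and Nfatc1, Ikzf2 and Bbc3 each had 1 KO-higher region.

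The genes of the sort gate had few shared distal regions, and at the 11.7% over all genes few of these would be WT-higher. Pdcd1, Lag3 and Entpd1, the genes of PD1, LAG3 and CD39, had 5, 2 and 6 shared distal regions and no WT-higher one. Lag3 and Entpd1 each had 1 KO-higher region. Ptprc, the gene of the Ly5 marker, had 1 WT-higher region of 13 (chr1:138136116-138136834), with a gap of 14.8. Tox itself had 21 shared distal regions, none WT-higher and 5 KO-higher. Its region closest to the rule (chr4:6924465-6925241) had a fold enrichment of 5.73 and 11.3 in KO against 13.6 and 10.5 in WT, with KO-2 between the WT libraries and a gap of 7.06. Of the 29 shared distal regions of the TOX family none was WT-higher and 8 were KO-higher. Their median gap was −34.4, and −0.643 with the genotypes exchanged. The WT-higher count of the family became 1 with −log10 q or −log10 p ranked and with peaks of −log10 q of at least 5 or 10. Without KO-2 it was 1, without WT-2 it was 2, and without KO-1 or WT-1 it stayed at 0.

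B cell marker genes had 6 shared distal regions, few against the 128 regions at these genes. Over all genes with a shared distal region 11.7% of the regions were WT-higher and 11.8% KO-higher. Of the 6 at B cell marker genes, 3 were WT-higher and none KO-higher. The 3 lay at Pax5 and Ebf1, factors of the B lineage, and at Cr2, a complement receptor of B cells. The WT-higher count became 9 without KO-1 and was 3 without each of the other libraries. In Pax5 the region at chr4:44704006-44704874 had a fold enrichment of 6.13 and 9.49 in KO against 11.5 and 10.7 in WT. Near Ebf1 (chr11:44610944-44611887) it was 3.27, 3.03, 4.81 and 5.19. A second list of 32 B cell genes, written after values had been seen, had 14 WT-higher and 12 KO-higher regions of 87. Its WT-higher count was 34 without KO-1 and 24 without WT-1. The count of all WT-higher regions also rose, from 1997 to 4479 without KO-1 and 3362 without WT-1. Mef2c, a factor of B cells and myeloid cells, had 2 of 7, with 4.90, 7.98, 11.9 and 12 at chr13:83608915-83609876. Cd180, a Toll-like receptor homolog of B cells, had 2 of 2, with gaps of 31 and 11.1.

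Myeloid and dendritic cell genes had 2 WT-higher regions and 1 KO-higher region of 21, at Flt3 and near Spi1, the gene of PU.1. In Flt3, the growth factor receptor of dendritic cell precursors, the region at chr5:147340848-147341566 had a fold enrichment of 3.11 and 5.72 in KO against 6.59 and 7.05 in WT. Near Spi1 (chr2:91078296-91078971) it was 2.53, 4.01, 4.44 and 3.98, where KO-2 lay just above WT-2. Flt3 was thus apart between the genotypes and Spi1 was not. Melanocyte and interferon response genes had 3 and 8 shared distal regions and none WT-higher, and cytotoxic genes had 15, of which none was WT-higher and 4 were KO-higher. Over all genes with a shared distal region 11.7% of the regions were WT-higher and 11.8% KO-higher. At these shares few or none would be WT-higher in lists of this size.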

How the data were processed

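ATAC-seq peak lists of 4 libraries, 2 WT and 2 KO, were used, grouped by the genotype and library names in the labels. Per the submitters' processing notes the tools were MACS2, BWA, deepTools, Picard and SAMtools, on GRCm38 (mm10). Their versions, their settings and any shift of reads are not given in the sources. Each deposited list had 10 columns and belonged to 1 library, with 43078, 61773, 56852 and 61489 peaks for KO-1 and KO-2, then WT-1 and WT-2. Regions were ranked by the deposited fold, the ratio of a peak to its local background. As alternatives they were ranked by the deposited −log10 q or −log10 p, and every −log10 q was at least 2.0. The deposited score was not used, and the deposited summit offsets gave the distances between summits.

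Regions were merged by overlaps of at least 1 bp and assigned to the nearest protein-coding gene interval within 100 kb (RefSeq, GRCm38.p6). No test was run, since the members were chosen on the contrast. The members and gene lists were chosen with earlier results of these data known, and the Rap and second B cell lists, Myadm, Sh2d3c, Gcnt1, Ptpn7, Nkx2-3, Shank1 and the microRNAs after their values were seen. The other genes named were the 10 regions of largest gap, the 5 highest in WT, the 10 genes with most WT-higher regions, up to 4 examples a list, the genes of the sort gate, the 3 leading runs and the regions at the threshold. Some list genes beyond 4 examples were added for their place in a pathway. A planned motif search over all regions needed a genome and was replaced by RefSeq start windows. The ranking was tested on simulated data with Python 3.11 and pandas 2.3.3. Alternatives were other ranked values, stricter peaks, other joining, gaps, widths and distances, each library left out and a replicate block.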

Additional observations from a re-analysis of the deposited data

How the results depend on the processing

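The counts of 1997 WT-higher and 2093 KO-higher regions moved by more than 1.5 times under some settings, with both directions moving together: 791 and 839 with peaks of −log10 q of at least 10, 1127 and 1252 with ranks among all peaks of a library, 940 and 1013 with a gap of at least 20, and 4664 and 4615 with mean WT over mean KO percentiles. Leaving out 1 library gave 3334 to 4479 WT-higher and 3364 to 4550 KO-higher regions. The 84 WT-higher regions at listed genes became 33, 50, 38 and 194 under the same settings in that order, 130 with a gap of at least 5, 43 with the midpoint inside the gene, and 143 to 185 without 1 library. The share inside genes (55.8%) was 58.4% at −log10 q of at least 10. The numbers 1 and 2 are only names of libraries, and no pairing is stated. A replicate block, WT-1 over KO-1 and WT-2 over KO-2, gave 2577 WT-higher and 2643 KO-higher regions. A block gap cannot be smaller than the gap of the rule. These counts could therefore only rise, and all 143 named regions kept a gap of at least 10 by construction. Across the settings that re-ranked them, 65 of the 143 kept it in every setting in which they could be measured. Regions lost under a setting were not counted against this. Of the 143, 112 could not be measured at −log10 q of at least 10, 66 at −log10 q of at least 5 and 24 with peaks joined by summits. Gaps turned negative with −log10 q or −log10 p ranked at Ets1 (−0.705); with the mean of peaks at Arhgef3 (−14.1), Sgms1 (−13.2), Rapgef2 (−11.1), Nfkb1 (−9.93), Ets1 (−9.29), Ccr7 (−7.41) and Foxp1 (−3.39); leaving out 1 library at Cxxc5 (−10.9 without WT-2 to 32.1 without KO-2); and with ranks among all peaks at Ets1 (−2.55), Cxxc5 (−2.52), Gata3 (−2.26) and Pmaip1 (−0.176). Some of these settings remove peaks or libraries, and the cause of the changes was not tested. Depth is unknown, and weak regions rest on KO-1, whose median −log10 q in WT-higher regions was 5.07, against 12 for KO-2 and 28.4 and 33.1 for the WT libraries.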

Other observations

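Some WT-higher regions lay at genes outside the lists and leading genes, and those given here were picked after their values had been seen. Both shared distal regions of Irf5, a factor of Toll-like receptor signaling, were WT-higher, and the one at chr6:29517133-29517582 had a fold enrichment of 3.18 and 3.45 in KO against 5.93 and 7.46 in WT. Both regions of Slamf9, a SLAM family receptor, were WT-higher as well, with gaps of 47.2 and 23.4. Near Pltp, the phospholipid transfer protein, the region at chr2:164868173-164868866 had 3.44, 6.06, 8.71 and 12. In each of these 3 examples both WT values were above both KO values. They are not the only such genes, since Ppp1r21, Nipal3, Usp27x and Drd3, among others, also had 2 of 2 regions WT-higher. Over all genes with a shared distal region 11.7% of the regions were WT-higher. Among the lists, Klrb1c of the natural killer list had 1 WT-higher region of 6 (gap 40.2), Il1r1 of the Th17 list 1 of 4 (gap 42.6) with 2 KO-higher, and Cdk1 of the cell cycle list 1 of 1 (gap 17.1).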
